A study of Mus musculus with 10 samples.

Results

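Fatty acid synthase (Fasn), the acetyl-CoA carboxylases Acaca and Acacb, and cytosolic malic enzyme (Me1) were followed through mouse livers in which the SREBP pathway had been driven up or switched off. They were taken as every probe set that the annotation of the Affymetrix MG_U74Bv2 array assigns to exactly 1 of these symbols. This gave 5 probe sets for 4 genes, of 12411 probe sets and 7542 named genes in all. Fasn had 110644_s_at and 110645_at, Acaca had 110755_at, Acacb had 111254_at and Me1 had 165216_r_at. Values are log2 expression levels on 10 arrays, 2 for each of 5 pools of liver RNA.

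The transgenic study used male mice aged 12 to 16 weeks. The TgSREBP-1a line overexpresses a nuclear, transcriptionally active form of human SREBP-1a, the TgSREBP-2 line the same form of human SREBP-2, and the controls were wild type littermates. All 3 groups ate food high in protein and low in carbohydrate for 2 weeks, which raises expression of the transgenes. The sources used here do not give the promoter of the transgenes. The Scap study used male mice aged 10 to 12 weeks on Teklad chow. Scap-/- mice carried MX1-Cre, an interferon-inducible recombinase that can also act outside hepatocytes. They and their wild type controls had 4 intraperitoneal injections of polyinosinic-polycytidylic acid, and livers were taken 14 days after the last. Each pool combined RNA of 5 mice (20 µg), and its 2 arrays are duplicate hybridisations of that pool. Every error and p-value therefore measures hybridisation, not the spread between mice.

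As background, these enzymes turn surplus carbon into fatty acids. The carboxylases make malonyl-CoA from acetyl-CoA: ACC1, the product of Acaca, works in the cytosol and supplies the synthase, while ACC2, the product of Acacb, sits at the mitochondrial surface, where malonyl-CoA inhibits fatty acid entry by carnitine palmitoyltransferase. Fatty acid synthase joins malonyl units into palmitate, and malic enzyme yields part of the NADPH that this takes. In liver, insulin and feeding raise these genes, mainly through SREBP-1c, LXR and ChREBP. SREBP precursors need the escort protein SCAP to reach the Golgi, where they are cut and released to the nucleus. SREBP-1a is a strong activator of both lipid branches, and SREBP-2 favours cholesterol synthesis.

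The bases just before the start of Fasn, Acacb and Me1 are shown because SREBPs act on such promoters beside NF-Y and Sp1. They come from RefSeq (GRCm38.p6), which had a window for all 4 genes, and run 5′ to 3′ on the strand of the gene for the 250 bases before the start. Fasn lies on the minus strand at chr11:120824548-120824797, Acacb on the plus strand at chr5:114165268-114165517, and the first of the Me1 windows on the minus strand at chr9:86695915-86696164. Capitals mark CCAAT, the NF-Y word, in Fasn and Acacb, and GGGCGG, the Sp1 word, in Me1, on either strand (ATTGG and CCGCCC where they lie on the other).
Fasn: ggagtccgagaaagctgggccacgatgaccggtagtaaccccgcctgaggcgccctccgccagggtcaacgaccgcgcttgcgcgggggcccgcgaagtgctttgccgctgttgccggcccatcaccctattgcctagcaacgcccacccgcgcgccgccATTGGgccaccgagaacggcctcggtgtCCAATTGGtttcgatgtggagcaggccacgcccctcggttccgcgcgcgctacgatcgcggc
Acacb: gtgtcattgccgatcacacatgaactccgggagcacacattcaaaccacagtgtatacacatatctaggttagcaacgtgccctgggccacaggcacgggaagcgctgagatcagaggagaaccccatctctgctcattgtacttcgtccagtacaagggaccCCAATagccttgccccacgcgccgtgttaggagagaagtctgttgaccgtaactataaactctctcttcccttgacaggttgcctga
Me1: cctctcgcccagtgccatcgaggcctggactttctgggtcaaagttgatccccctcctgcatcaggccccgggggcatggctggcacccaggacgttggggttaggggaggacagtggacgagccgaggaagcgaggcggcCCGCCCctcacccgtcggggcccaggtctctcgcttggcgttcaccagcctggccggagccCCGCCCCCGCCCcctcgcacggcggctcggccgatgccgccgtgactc
Fasn held 3 copies of CCAAT, beginning 90, 62 and 59 bases before the start, with the last pair overlapping on opposite strands. Acacb held 1 copy, 87 bases before the start. Me1 held 3 copies of GGGCGG, 109, 48 and 42 bases before it. A CCAAT on either strand is found in 33.8% of 32851 such windows and a GGGCGG in 32.7%, so neither word is rare. A second Me1 window (chr9:86687278-86687527, minus strand) held 1 CCAAT, 208 bases before its start. The Acaca window (chr11:84195188-84195437, plus strand), which is not printed, held neither word. It was the only window searched for that gene, so any other start of Acaca is not covered. The sterol regulatory element TCACNCCAC (1.05% of windows) and the E-box CACGTG (6.02%) were searched on both strands. They are not in the windows used here for any of the 4 genes. GC content was 69.2% in Fasn, 72.0% and 46.0% in the Me1 windows, 52.4% in Acacb and 39.2% in Acaca, against a median of 52.4%. The files name no genome build and the arrays measure transcripts, so these letters describe the genes and not the measurements.

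The arrays had medians between 5.625 and 5.662, and duplicates correlated at 0.9871 to 0.9944. All arrays of the Scap study were closer, by correlation, to an array of the opposite genotype than to their duplicate, and the second TgSREBP-2 array stood closest to a wild type array. In Scap-/- liver the brighter Scap probe set fell by 1.22 ± 0.18 (limma standard error; adjusted p = 0.018), while the other was dim and read 0.12. With 1 array left out the fall of the brighter lay between -1.40 and -1.05. Its call was lost in 3 of those 4 fits and with only the arrays of the Scap study in the fit. Where the Scap probe sets lie relative to the deleted part is not stated. Insig1, a sterol-regulated SREBP target, read 4.53 and 4.12 in Scap-/- against 7.26 and 6.45 in its wild type pool. Of 20 hepatocyte markers, 3 were measured (Apoa1, Hnf4a and C8a), and none was dim in any group.

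A probe set was called when limma's Benjamini-Hochberg adjusted p over all 12411 probe sets was under 0.05 and the change at least 1.5-fold. In TgSREBP-1a all 5 probe sets of the 4 genes rose, where 1.36% of all probe sets were called higher. In TgSREBP-2, Acaca and both Fasn probe sets rose, against 0.338% of all, while Acacb and Me1 did not pass. In Scap-/- liver, Acacb fell, where 0.258% of all probe sets were called lower. The other 4 probe sets lay below wild type on both arrays, as did 14.4% of all, without passing the test. Both transgenic lines were set against the same wild type arrays, so a peculiarity of that pool would enter both comparisons. In whole liver, a change in the share of cells that express a gene and a change in RNA per cell cannot be told apart.

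**Figure D1:**
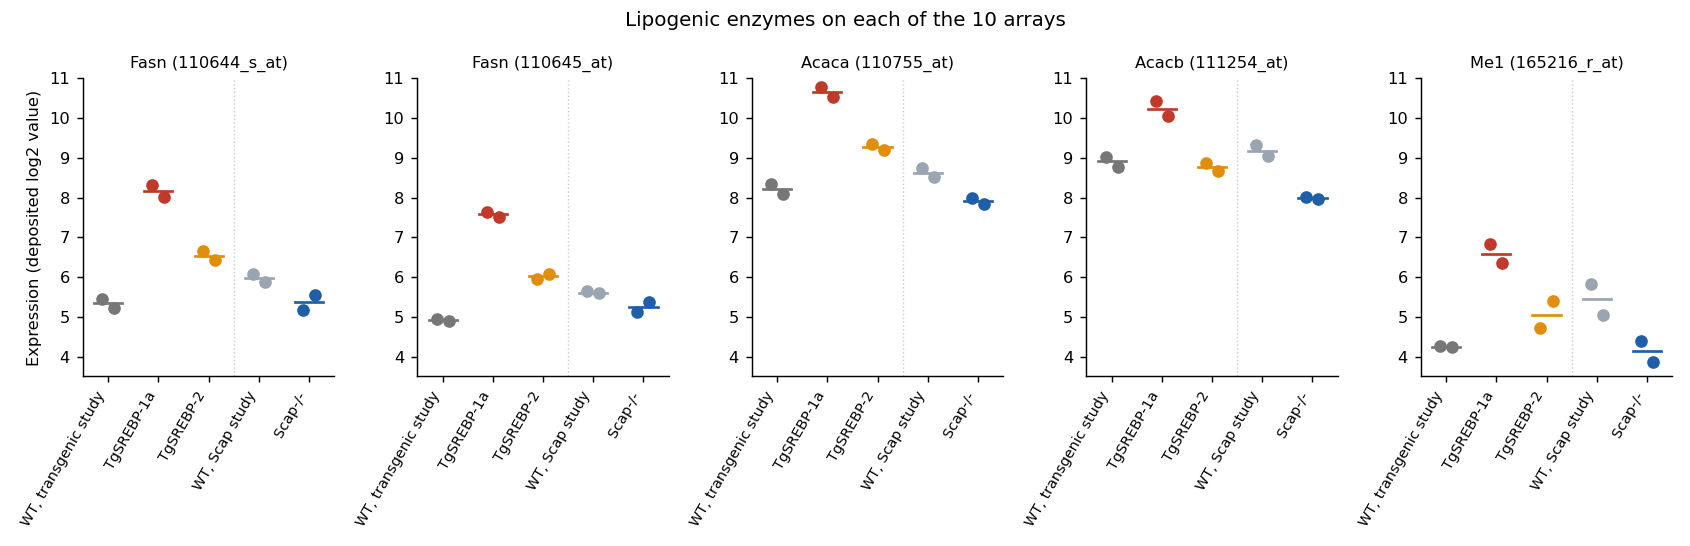
Deposited log2 level of each probe set (vertical axis) on both arrays of the 5 groups (WT: wild type), array 1 at the left of each pair and array 2 at the right, with a line at the group mean; the dotted line separates the studies. TgSREBP-1a is highest in all 5 panels, TgSREBP-2 lies above its wild type for Fasn and Acaca and beside it for Acacb, and Scap-/- lies lowest for Acaca and Acacb.

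Acaca, the cytosolic carboxylase and the first committed step, was graded across the groups. In the transgenic study its log2 level read 8.34 and 8.08 for wild type, 10.78 and 10.53 for TgSREBP-1a, and 9.36 and 9.19 for TgSREBP-2. On the Scap study's arrays it read 8.75 and 8.52 for wild type and 7.99 and 7.85 for Scap-/-. No pair of neighbours in the order TgSREBP-1a, TgSREBP-2, wild type of the Scap study, wild type of the transgenic study and Scap-/- overlapped. Acaca rose by 2.44 ± 0.14 in TgSREBP-1a (5.44-fold; limma, adjusted p = 6.9e-06), the eleventh highest change on the array. In TgSREBP-2 it rose by 1.06 ± 0.14 (2.09-fold; limma, adjusted p = 0.0048). The call for TgSREBP-2 was lost without the second wild type array (0.94, adjusted p = 0.085) and without the first TgSREBP-2 array (0.97, adjusted p = 0.066). In the Scap study Acaca changed by -0.71 ± 0.14 (1.64-fold; limma, adjusted p = 0.088). This missed the threshold, but quantile normalization of the deposited values gave -0.65 with a limma adjusted p of 0.028. A fit with a term for the hybridisation number (a replicate block) gave -0.71 with a limma adjusted p of 0.0026. The call thus depended on the processing.

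Acacb, the mitochondrial-surface carboxylase, followed another pattern. It read 9.03 and 8.78 for wild type, 10.42 and 10.06 for TgSREBP-1a, and 8.87 and 8.66 for TgSREBP-2, so TgSREBP-2 overlapped its wild type. In the Scap study it read 9.32 and 9.04 in wild type and 8.02 and 7.97 in Scap-/-, the lowest group by 0.77. It rose by 1.33 ± 0.15 in TgSREBP-1a (2.52-fold; limma, adjusted p = 0.00062), the smallest of the members' rises there. In TgSREBP-2 its change was -0.14 ± 0.15, with a 95% interval of -0.47 to 0.19 (limma, adjusted p = 0.85). That interval leaves out a rise as large as that of Acaca, whose interval in the same line was 0.76 to 1.36. The difference between the carboxylases in that line was not tested. In Scap-/- liver Acacb fell by 1.19 ± 0.15 (2.27-fold; limma, adjusted p = 0.0096). That call was lost without the first wild type array (-1.05, adjusted p = 0.076), without the second Scap-/- array (-1.16, adjusted p = 0.12) and with only the 4 arrays of the Scap study in the fit (adjusted p = 0.12).

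Fasn, the synthase itself, had the members' largest rise. Probe set 110644_s_at, whose suffix marks probes that may be shared between similar sequences, read 5.45 and 5.23 for wild type, 8.31 and 8.02 for TgSREBP-1a, and 6.65 and 6.42 for TgSREBP-2. Its values from the Scap study were 6.09 and 5.88 for wild type and 5.18 and 5.56 for Scap-/-. No arrays of TgSREBP-1a, TgSREBP-2 and either wild type pool overlapped, but Scap-/- overlapped wild type of the transgenic study. Probe set 110645_at gave 4.94 and 4.89, 7.64 and 7.52, 5.96 and 6.07, 5.64 and 5.59, and 5.12 and 5.38 for the same groups in that order. It kept the same order of groups, without any overlap. The probe sets correlated at 0.989 over the 10 arrays.

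In TgSREBP-1a the Fasn probe sets rose by 2.83 ± 0.16 (7.12-fold; limma, adjusted p = 6.9e-06) and 2.66 ± 0.11 (6.33-fold; adjusted p = 8.7e-07). Those were the fifth and sixth highest changes on the array. In TgSREBP-2 they rose by 1.20 ± 0.16 (2.29-fold; limma, adjusted p = 0.0066) and 1.10 ± 0.11 (2.15-fold; adjusted p = 0.0011). The call of 110644_s_at in TgSREBP-2 was lost without the second wild type array (1.09, adjusted p = 0.11) or the first TgSREBP-2 array (1.08, adjusted p = 0.092). That of 110645_at held without each of the 4 arrays in turn, between 1.05 and 1.16. With SCAP lost the changes were -0.61 ± 0.16 (limma, adjusted p = 0.34) and -0.36 ± 0.11 (adjusted p = 0.47), not past the threshold. Their 95% intervals were -0.97 to -0.26 and -0.61 to -0.12. These are not adjusted for the number of probe sets tested and measure hybridisation only, so a fall was not established.

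Me1, a source of NADPH, was the least precisely measured of the members. Its probe set carries a suffix given where the usual rules for choosing probes could not all be met, and 37.5% of probe sets had a lower mean. It read 4.26 and 4.23 for wild type, 6.84 and 6.35 for TgSREBP-1a, and 4.72 and 5.39 for TgSREBP-2. In the Scap study it read 5.83 and 5.05 in wild type and 4.39 and 3.86 in Scap-/-. Duplicates of Me1 differed by up to 0.78, more than those of the other members. Me1 rose by 2.35 ± 0.29 in TgSREBP-1a (5.10-fold; limma, adjusted p = 0.0012). In TgSREBP-2 it changed by 0.81 ± 0.29 (1.75-fold; limma, adjusted p = 0.52), with a 95% interval of 0.17 to 1.45. With SCAP lost its change of -1.32 ± 0.29 (2.49-fold; limma, adjusted p = 0.19) was larger than that of Acacb but not called. Without the second wild type array it was -1.71 and called (limma, adjusted p = 0.034).

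**Figure D2:**
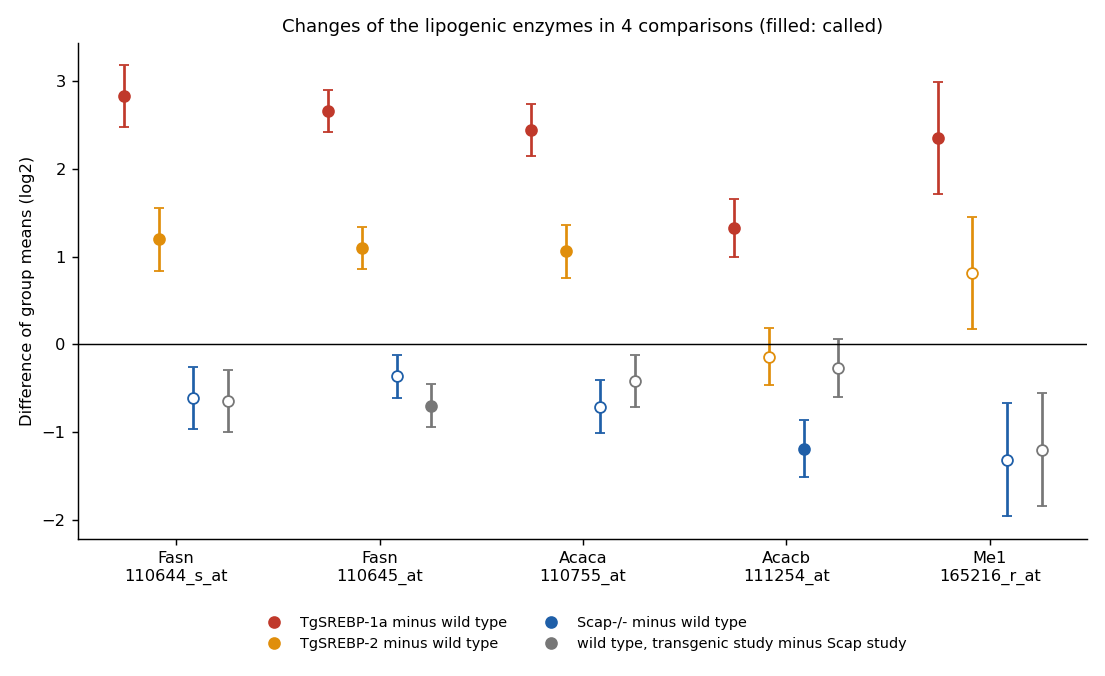
Difference of group means on the log2 scale (vertical axis) for each probe set in 4 comparisons, with 95% limma intervals; filled points were called. Acacb is the only member called lower in Scap-/- and has an interval across 0 in TgSREBP-2, whereas Fasn and Acaca were called higher in both transgenic lines.

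The transgenic lines were set against each other directly, which compares their RNA pools. Levels of the human transgenes were not analysed here, so isoform and transgene level cannot be told apart. TgSREBP-1a stood above TgSREBP-2 for each of the 5 member probe sets, a call made for 1.18% of the array. The difference was 1.64 ± 0.16 for Fasn 110644_s_at (3.11-fold; limma, adjusted p = 0.00044) and 1.56 ± 0.11 for 110645_at (2.95-fold; adjusted p = 5.5e-05). It was 1.38 ± 0.14 for Acaca (2.61-fold; adjusted p = 0.00044) and 1.48 ± 0.15 for Acacb (2.78-fold; adjusted p = 0.00051). Me1 differed by 1.54 ± 0.29 (2.91-fold; limma, adjusted p = 0.021). The 4 genes thus stood apart between the lines by similar factors of 2.61 to 3.11, although their changes from wild type differed. The Me1 call was lost without the first TgSREBP-1a array (1.29, adjusted p = 0.26), the second (1.79, adjusted p = 0.057) or the first TgSREBP-2 array (1.20, adjusted p = 0.22). The other 4 calls held without each of the 4 arrays in turn.

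Whether gain and loss were of equal size was tested by adding each log2 change in a transgenic line to that in Scap-/- liver, a sum of 0 where rise and fall match. For TgSREBP-1a the sum was 2.22 ± 0.22 for Fasn 110644_s_at (limma, adjusted p = 0.00084), 2.30 ± 0.15 for 110645_at (adjusted p = 5.7e-05) and 1.73 ± 0.19 for Acaca (adjusted p = 0.0014). These 3 of 5 probe sets were called, against 0.612% of all called higher: their rise was larger than their loss. For Acacb the sum was 0.15 ± 0.21, with a 95% interval of -0.32 to 0.61 (limma, adjusted p = 0.91), and it was -0.03 without the first TgSREBP-1a array. For Me1 it was 1.03 ± 0.41 (limma, adjusted p = 0.45). The sums combine separate studies with their own diets and controls.

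For TgSREBP-2 the same sum was -1.33 ± 0.21 for Acacb (limma, adjusted p = 0.04), 1 of 5 probe sets and the only member called, where 0.153% of all were called lower. This call was lost in 7 of 8 fits that left out 1 array, with sums between -1.47 and -1.19. The sums were 0.58 ± 0.22 and 0.74 ± 0.15 for Fasn, 0.35 ± 0.19 for Acaca and -0.51 ± 0.41 for Me1 (limma, adjusted p between 0.15 and 0.7). Their intervals were wide enough to hold matching sizes for Acaca (-0.08 to 0.77) and Me1 (-1.42 to 0.40).

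**Figure D3:**
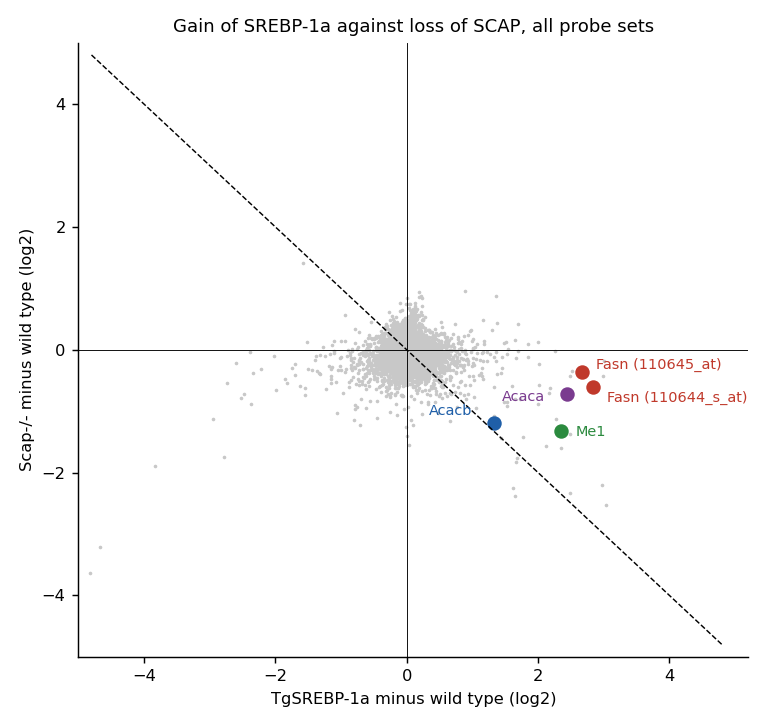
Log2 change in TgSREBP-1a (horizontal axis) against log2 change in Scap-/- (vertical axis), each from its own wild type pool, for all 12411 probe sets in grey and the 5 member probe sets in colour; the dashed line marks equal and opposite changes. Acacb lies by the line at 1.33 and -1.19, whereas Fasn and Acaca lie far to its right.

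Over all probe sets, 6 (0.0483%) were called higher in both lines, with TgSREBP-1a above TgSREBP-2. They were both Fasn probe sets, Acaca, Acsl3, which activates long-chain fatty acids, Chrna4, a nicotinic receptor subunit, and Pstpip2, an adaptor protein. A further 8 (0.0645%) were called higher in TgSREBP-1a, lower in Scap-/- and apart between the lines, with TgSREBP-1a above. They stand for Acacb, the desaturase Fads2, the glutathione transferase Gstt3, Tlcd1, Camk1d and Rarres1. The place of Acacb rests on its call in Scap-/-, which was lost in the fits named above. Under quantile normalization or the replicate block, Acaca too was called lower there. The names Pstpip2, Camk1d and Rarres1 were chosen with their values known.

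The genes that moved most like each member over the 10 arrays were taken by Pearson r, as a description of these arrays, whose points share pools and groups. For Fasn they were Chrna4 (0.992), Sgsm1 (0.989), Acaca (0.987), Acsl3 (0.977) and Frmd4b (0.955). For Acaca they were Chrna4 (0.992), Fasn (0.987), Acsl3 (0.984), Sgsm1 (0.977) and Aig1 (0.973), so 3 names besides each other were shared. For Acacb none of those appeared: its nearest were Gstt3 (0.964), Tmem135 (0.963), Tlcd1 (0.962), Gstm7 (0.962) and Ercc3 (0.943). For Me1 they were Pde4b (0.966), Spryd7 (0.963), Jkamp (0.956), Acsl4 (0.952) and Cd44 (0.941). Among the members themselves Fasn and Acaca correlated at 0.987, and Acacb with Fasn at 0.849 and with Acaca at 0.874.

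The neighbours were chosen for likeness over these same arrays, so their changes are a description. Gstt3 changed by 2.01 ± 0.12 in TgSREBP-1a, -0.03 ± 0.12 in TgSREBP-2 and -0.89 ± 0.12 in Scap-/-. Tlcd1 changed by 1.65 ± 0.13, 0.23 ± 0.13 and -0.81 ± 0.13 in the same comparisons. In both, the first and last change were called by limma and the middle one was not, and the calls in Scap-/- were lost when single arrays were left out. Chrna4, nearest to Fasn, changed by 2.49 ± 0.11, 1.01 ± 0.11 and -0.43 ± 0.11, the first and second called. Its probe sets disagreed, however: 110658_at gave these values, 110657_at gave 1.22 in TgSREBP-1a, and the brightest, 106106_at, lay within 0.01 of 0 in both transgenic lines. Tlcd1 had a second, dimmer probe set that gave 0.43 in TgSREBP-1a.

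**Figure D4:**
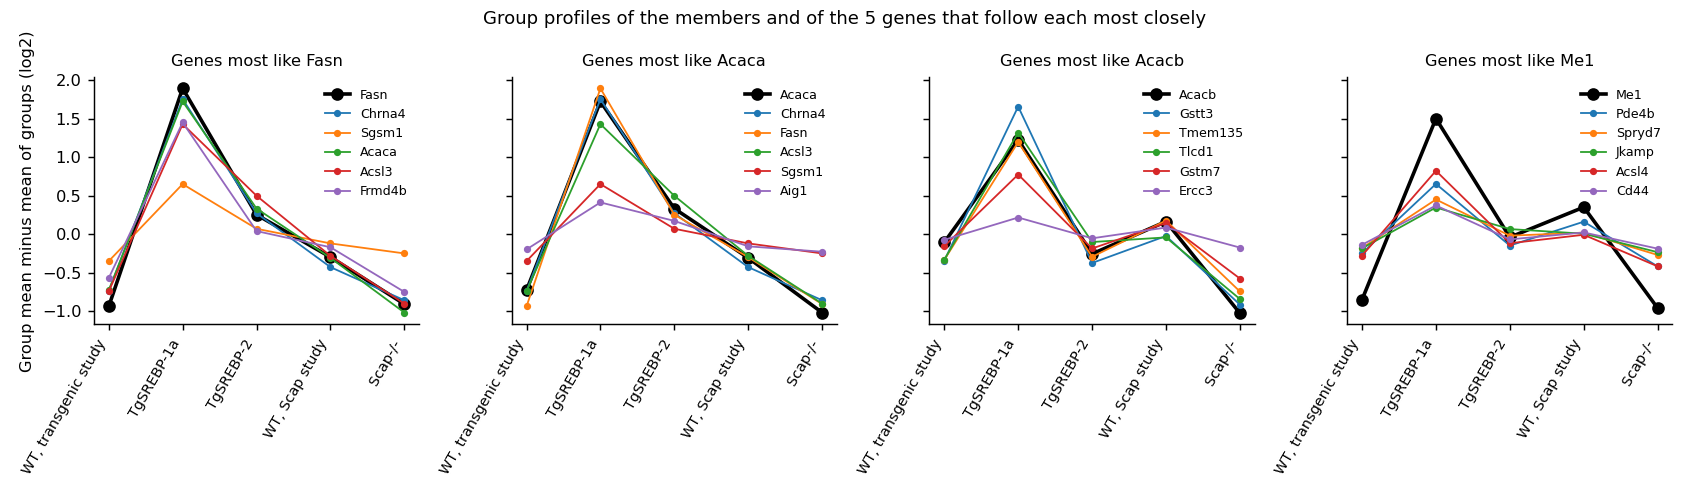
Group mean minus the mean of the 5 groups on the log2 scale (vertical axis) across the groups (WT: wild type), for each member in black and the 5 genes with the highest Pearson r in colour. Fasn and Acaca and their neighbours step down from TgSREBP-1a to TgSREBP-2 and on to the wild type pools, while Acacb and its neighbours in TgSREBP-2 lie within 0.23 of the transgenic study's wild type pool.

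Around the members, 6 lists of genes bear on other steps of lipogenesis, each gene represented by its brightest probe set. Only part of each list was measured: 18 of 32 genes for fatty acids, 11 of 24 for citrate and acetyl-CoA, 8 of 19 for NADPH. For regulators it was 19 of 40, for the carnitine shuttle 3 of 7 and for glycolysis 2 of 20. The steps of the unmeasured genes are not covered. Over all 7542 genes the median log2 change was -0.01 in TgSREBP-1a, -0.02 in TgSREBP-2 and 0.01 in Scap-/-. Of those genes 1.78% were called higher and 0.994% lower in TgSREBP-1a, 0.385% higher in TgSREBP-2 and 0.305% lower in Scap-/-. Of 18 measured genes that synthesise, activate, elongate or desaturate fatty acids, 4 rose in TgSREBP-1a, 0 fell, and the median was 0.10. Acss2, which makes acetyl-CoA from acetate, rose by 2.49 ± 0.21, the desaturase Fads2 by 2.28 ± 0.14, and the long-chain acyl-CoA synthetases Acsl3 and Acsl4 by 2.18 ± 0.15 and 1.10 ± 0.17. A second, dimmer Acsl3 probe set gave 0.15. In TgSREBP-2, 2 of the 18 rose, Acss2 (1.95 ± 0.21) and Acsl3 (1.24 ± 0.15). In Scap-/- liver 2 fell, Acss2 (-2.33 ± 0.21) and Fads2 (-1.13 ± 0.14). Acss2 was thus called in all 3 comparisons with wild type, as no member was.

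Between the lines Fads2 (1.58 ± 0.14), Acsl4 (0.94 ± 0.17) and Acsl3 (0.93 ± 0.15) were higher in TgSREBP-1a, 3 of 18 against 1.47% of all genes, and 0 were lower. The calls of Acsl3 in TgSREBP-2, Fads2 in Scap-/- and Acsl4 in TgSREBP-1a were each lost in 2 of 4 fits that left out 1 array. Between the lines, the call of Acsl3 was lost in 2 of 4 such fits and that of Acsl4 in 3 of 4, while Fads2 was called in each, so the list count was as low as 1. The rest of the list was not called in TgSREBP-1a, with Cbr4, a reductase of mitochondrial fatty acid synthesis, the highest of them at 0.49 ± 0.19.

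Of 11 measured genes that supply citrate and acetyl-CoA, Aacs, which activates acetoacetate in the cytosol, was the 1 that rose in TgSREBP-1a (1.32 ± 0.17) and in TgSREBP-2 (1.36 ± 0.17) and fell in Scap-/- (-1.08 ± 0.17). Between the lines it read -0.03 ± 0.17 and was not called. Its calls in TgSREBP-2 and Scap-/- were lost in 2 and 3 of 4 fits that left out 1 array. Pdp2, a phosphatase that activates pyruvate dehydrogenase, fell by 0.68 ± 0.13 in TgSREBP-1a, a call lost without each array in turn. Of 19 listed genes of NADPH production other than Me1, 8 were measured, among them the dim Tkt (mean log2 level 3.61). The other listed genes cannot be judged here. Of the 8 measured, 0 were called by limma in TgSREBP-1a, TgSREBP-2 or Scap-/-. At an unadjusted p under 0.05 the counts were 0, 0 and 1. Their medians were -0.02, 0.04 and -0.04. Aldh1l1, the brightest of them and a folate enzyme, read 0.37 ± 0.20, 0.04 ± 0.20 and -0.62 ± 0.20, and Mthfd1, also of folate metabolism, read -0.12 ± 0.11, 0.04 ± 0.11 and -0.14 ± 0.11.

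Of 19 measured regulators of the carboxylases and of lipogenic genes, 2 rose in TgSREBP-1a. Insig1, which holds SCAP in the endoplasmic reticulum, rose by 3.03 ± 0.24. Nfyb, a subunit of the CCAAT-binding factor NF-Y, rose by 0.68 ± 0.16 (limma, adjusted p = 0.047), a call lost without each array in turn. Hlcs, which attaches biotin to the carboxylases, changed by 0.58 ± 0.12 (limma, adjusted p = 0.033), under the required 1.5-fold. In TgSREBP-2, Insig1 rose by 2.36 ± 0.24. In Scap-/-, Insig1 (-2.53 ± 0.24) and Scap fell, the Scap call being lost in the fits named above. Of 3 measured genes of the carnitine shuttle, Crot, a peroxisomal carnitine octanoyltransferase, fell by 1.52 ± 0.22 in TgSREBP-1a and 0 were called by limma in TgSREBP-2 or Scap-/-, where 0 reached an unadjusted p under 0.05. Cpt1c, a brain form of the malonyl-CoA target, read between -0.06 and 0.05 in these comparisons. Of the glycolysis list 2 of 20 genes were measured, Pfkfb2 and the dim Pgk1 (mean log2 level 3.54). In these comparisons 0 were called by limma or reached an unadjusted p under 0.05.

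**Figure D5:**
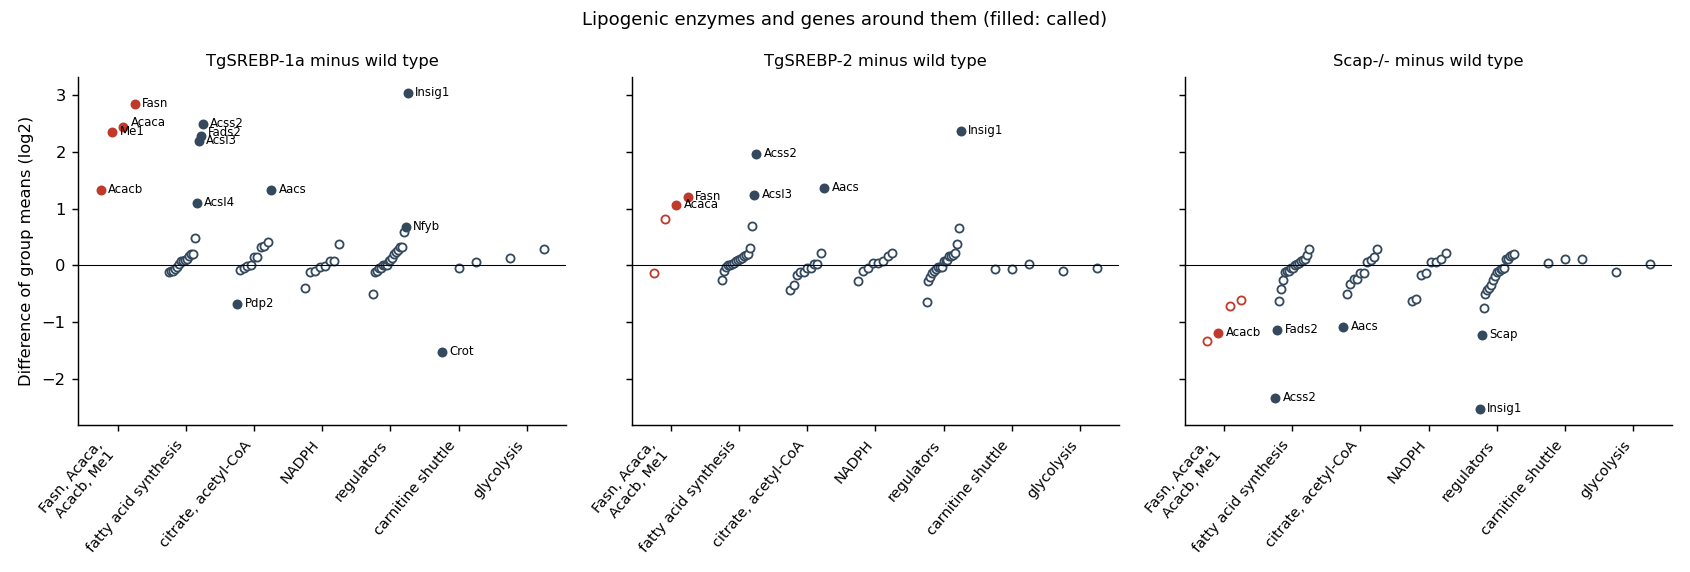
Log2 change from wild type (vertical axis) of the 4 members in red and of the measured genes of 6 lists in blue, 1 point per gene, in TgSREBP-1a, TgSREBP-2 and Scap-/-; filled, named points were called. Most measured genes of each list lie near 0, and the called ones are few. Acss2, Aacs and Insig1 move in all 3 panels. None of the 8 measured NADPH genes, of 19 listed, was called.

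The wild type pools differ in diet, age, injections and breeding, which cannot be told apart. All 5 probe sets read lower in the pool of the transgenic study, without overlap, as did 17.4% of all. The 1 called was Fasn 110645_at (-0.70 ± 0.11; limma, adjusted p = 0.023), where 0.355% of all probe sets were called lower. Its call was lost without 3 of the 4 arrays in turn. Fasn 110644_s_at read -0.65 ± 0.16, Acaca -0.42 ± 0.14, Acacb -0.27 ± 0.15 and Me1 -1.20 ± 0.29 (limma, adjusted p between 0.15 and 0.62). Me1 was called without the second array of the Scap study's wild type pool (-1.59, adjusted p = 0.038). Acss2 (-1.65 ± 0.21), Insig1 (-1.31 ± 0.24) and Aacs (-0.91 ± 0.17) were lower there too, each call lost without 2 or 3 of the 4 arrays in turn.

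Markers of other cell types moved with some of these comparisons, and their part in the members' changes was not tested. Summed linear levels of 3 hepatocyte markers were 11700 to 13000 for the transgenic study's wild type pool. They were 8570 to 9310 in TgSREBP-1a, where the members rose, and 6440 to 12100 in TgSREBP-2. In the Scap study they were 11700 to 12800 for wild type and 9900 to 11500 for Scap-/-. Apoa1, with a mean log2 level of 13.11 against 10.22 for Hnf4a and 8.46 for C8a, weighs most in this sum. Its TgSREBP-2 arrays read 13.32 and 12.22. In TgSREBP-1a, C8a fell by 2.60 ± 0.24 and was called, whereas Apoa1 (-0.42 ± 0.26) and Hnf4a (-0.42 ± 0.19) were not. For wild type of the transgenic study, TgSREBP-1a and TgSREBP-2, 2 macrophage markers summed to 40.5 to 41.4, 64.2 to 69.3 and 33.2 to 41.2. In the same groups 5 endothelial markers summed to 732 to 809, 859 to 927 and 698 to 727. Against wild type, Cd163 (0.91 ± 0.15) and Lyve1 (0.64 ± 0.10) were called higher in TgSREBP-1a. The other macrophage and endothelial markers were not called there. The 3 pancreatic acinar markers summed to 1970 to 2640 in that wild type pool. Their sum was 227 to 228 in TgSREBP-1a and 3220 to 4230 in TgSREBP-2. In TgSREBP-1a, Cpb1 (-4.67 ± 0.21) and Cela3b (-3.84 ± 0.16) were called lower, but Ctrc, an acinar protease, was not (-0.22 ± 0.10). In TgSREBP-2, Ctrc rose by 1.51 ± 0.10, while Cpb1 and Cela3b (0.63 each) were not called. Between the lines all 3 acinar markers and the hepatocyte marker C8a were called lower in TgSREBP-1a. The macrophage marker Cd163 (1.21 ± 0.15) and the endothelial markers Ptprb (1.02 ± 0.18) and Lyve1 (0.82 ± 0.10) were called higher. The dim macrophage marker Timd4 (-0.09 ± 0.11) was not called. Nor were the endothelial markers Stab1 (0.04 ± 0.11), Stab2 (0.16 ± 0.11) and Esam (0.18 ± 0.12). A second, dimmer Ptprb probe set gave 0.37. In the Scap study the acinar markers summed to 912 to 1110 for wild type and 260 to 269 for Scap-/-. There Cpb1 (-3.21 ± 0.21) and Cela3b (-1.89 ± 0.16) were called lower, and Ctrc was not (-0.13 ± 0.10). Macrophage markers summed to 38.8 to 40.4 for wild type and 32.8 to 36.9 for Scap-/-. Endothelial markers summed to 784 to 819 and 722 to 791. No hepatocyte, macrophage or endothelial marker was called in Scap-/-. Of 15 adipocyte markers, whose cells also make these enzymes, 2 were measured, Retn and the dim Acvr1c. Their sum was 145 to 164 in the transgenic study's wild type pool, 147 to 166 in TgSREBP-1a and 153 to 251 in TgSREBP-2. In the Scap study it was 138 to 157 for wild type and 147 to 182 for Scap-/-. The 2 cholangiocyte and 2 stellate cell markers had 0 calls by limma in the 3 comparisons with wild type, and 0 at an unadjusted p under 0.05.

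The first array of a pair read higher than the second for Acaca by 0.15 to 0.25 and for Acacb by 0.04 to 0.35 in all 5 groups, and for Fasn 110644_s_at in 4 of 5. These offsets are smaller than the called changes of the same probe sets. For Me1 the first array read higher by 0.02 to 0.78 in 4 of 5 groups and lower by 0.67 in TgSREBP-2. Fasn 110645_at read lower on the first array in TgSREBP-2 (5.96 and 6.07) and Scap-/- (5.12 and 5.38). With a term for the hybridisation number in the fit (the replicate block), Acaca in Scap-/- was called (-0.71, limma, adjusted p = 0.0026). No other member call changed. The cause of the offsets was not tested.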

How the data were processed

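Liver RNA pools were hybridised in duplicate to Affymetrix MG_U74Bv2 arrays. The deposited values are log2 expression levels made by the authors with RMA, per the submitters' processing notes, which give no version; per the series' design text, MICROARRAY SUITE was used after scanning. RMA equalises array distributions, so a change shared by most genes would not show. Of 12477 probe sets, 66 controls were left out. Symbols came from the platform annotation: 10581 probe sets had 1 symbol, 178 several and 1652 none; 10550 were matched by gene ID to a RefSeq table (GRCm38.p6), which changed 0 symbols.

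The 5 group means were estimated together from the 10 arrays by limma 3.58.1 (lmFit, eBayes; R 4.3.3), with two-sided tests and Benjamini-Hochberg adjustment over 12411 probe sets. Errors are limma standard errors with n = 2 arrays per group, and their median of 0.115 shows the precision that this number of arrays allows. The fit was checked on simulated data. The members and gene lists were chosen with earlier results of these data known. Named were all member probe sets, up to 4 called genes per list and comparison (where none was called, up to 2 of the brightest), the 5 genes most like each member, Scap and Insig1. Alternatives were left-out arrays, fewer arrays in the fit, other scaling, a brightness filter, an intensity trend, array weights, control probe sets kept, a replicate block and a 2-fold threshold.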

Additional observations from a re-analysis of the deposited data

Results flagged for a closer look

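The effect of the transgene differed between the lines for every member, by the direct limma comparison of TgSREBP-1a with TgSREBP-2, which share their wild type pool. The difference of effects on the log2 scale was 1.64 for Fasn 110644_s_at, 1.56 for Fasn 110645_at, 1.38 for Acaca, 1.48 for Acacb and 1.54 for Me1. Each line is represented by 1 pool of RNA, so these values compare pools. Levels of the human transgenes were not analysed here.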

How the results depend on the processing

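With 1 array left out, calls numbered 142 to 193 in TgSREBP-1a (270 with all arrays), 25 to 124 in TgSREBP-2 (62), 10 to 68 in Scap-/- (34), 87 to 384 between the lines (231) and 14 to 120 between the wild type pools (63). Requiring 2-fold left 133, 38, 115 and 33 in TgSREBP-1a, TgSREBP-2, between the lines and between the wild type pools. Fitting only the 4 arrays of a comparison left 5 calls in Scap-/- and 13 between the wild type pools. Under a replicate block on the hybridisation number, 101 were called in TgSREBP-2, 91 in Scap-/- and 145 between the wild type pools, and Acaca in Scap-/- was called (-0.71, limma, adjusted p = 0.0026). The block changed no other member call, and 1 gene of NADPH production was called in Scap-/- under it, against 0 without. Deviations of same-numbered arrays from their group means correlated at 0.343 to 0.598 between groups other than TgSREBP-2. The highest, 0.598, was between Scap-/- and its wild type pool. Between TgSREBP-2 and the rest they correlated at -0.167 to 0.113. No label says that a number marks a batch, so the numbers were not taken to pair the arrays. Quantile normalization gave -0.65 for that Acaca change.

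With 1 array left out, Fasn 110644_s_at lay between 1.08 and 1.31 and Acaca between 0.94 and 1.19 in TgSREBP-2. In Scap-/- Acacb lay between -1.32 and -1.05 and Me1 between -1.71 and -0.93. Me1 lay between 1.20 and 1.87 between the lines and between -1.59 and -0.81 between the wild type pools. Acacb in Scap-/- was -1.19 and not called with 4 arrays. The sum of its TgSREBP-1a and Scap-/- changes lay between -0.03 and 0.32, and of its TgSREBP-2 and Scap-/- changes between -1.47 and -1.19. The latter sum was -1.33 and not called with fewer arrays, an intensity trend or array weights. The cause of these shifts was not tested beyond the smaller number of arrays. Me1 has no value under the brightness filter, since its mean is below the median. All 5 calls in TgSREBP-1a held under every alternative that gave a value.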
